A study of Mus musculus with 7 samples.

Results

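TFIIA, the TBP family, the protease Taspase1 and its substrates were followed through 7 genes in haematopoietic stem cells (HSCs) of the mouse fetal liver. The genes were Gtf2a1, Gtf2a1l, Tbp, Tbpl1, Tasp1, Kmt2a and Usf2, chosen by name for their place in this pathway, and every probe set annotated to one of them alone was used. That gave 13 probe sets of 22626 tested, and 7 genes of 12393. RNA came from embryos at embryonic day 14.5 of 2 genotypes. The mutant embryos were homozygous for a non-cleavable form of TFIIAα-β (TFIIAα-βnc/nc, written TFIIA nc/nc here; 3 samples of 2, 2 and 4 embryos), and the others were wild-type (4 samples of 1, 1, 4 and 3 embryos). All came from crosses of TFIIAα-βnc/+ parents, pooled embryos were littermates of one genotype, and every cell of a TFIIA nc/nc embryo carried the allele. Stem cells, defined as lineage-negative with Sca-1, c-Kit and CD150 on the surface, were sorted in 2 passes, and each sample was read on 1 Affymetrix array. The series set the transcriptome of stem cells in which TFIIA cannot be cut beside that of wild-type stem cells.

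TFIIA is a general transcription factor that binds TBP, the TATA-binding protein, and steadies it on the promoter of a gene. Gtf2a1 encodes its large subunit as one precursor, which Taspase1 cuts into an α and a β chain, and a separate gene supplies the small subunit γ. Taspase1 is a threonine protease that cuts few proteins, among them MLL1, the product of Kmt2a, a histone methyltransferase that maintains Hox gene expression in blood stem cells. The non-cleavable mutation changes the protein, and the arrays measured only RNA, so the levels of Gtf2a1 do not check the genotype labels.

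By brightest probe set, Gtf2a1, encoding the cut subunit, and Tasp1, encoding the protease, had the largest positive differences among the 7 genes. Neither difference passed the adjusted threshold, and the dimmest Gtf2a1 probe set was lower in TFIIA nc/nc. Among the 6 members with a matched window, these 2 had a window that held CACGTG, the E-box bound by USF factors. A further Gtf2a1 window held none. The stretches before both gene starts, from RefSeq on GRCm38.p6, are shown because they hold this E-box. They run 5′ to 3′ on the gene's strand, with the E-box in capitals. The Gtf2a1 stretch is chr12:91590488-91590637, minus strand, and the Tasp1 stretch is chr2:140066848-140066955, minus strand.
Gtf2a1: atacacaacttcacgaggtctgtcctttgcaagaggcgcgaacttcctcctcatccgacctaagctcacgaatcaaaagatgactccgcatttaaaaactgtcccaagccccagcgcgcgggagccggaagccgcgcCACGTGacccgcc
Tasp1: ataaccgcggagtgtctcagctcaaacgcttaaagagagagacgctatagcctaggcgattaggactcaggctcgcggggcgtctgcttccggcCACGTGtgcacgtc
The E-box began 13 bases before the outermost annotated start of Gtf2a1 and 14 bases before that of Tasp1. Counted from the start that set each window, it lay at −13 for Gtf2a1 and at −56 for Tasp1, so the spacing depends on the start chosen. In windows of 250 bases before to 50 after a gene start, CACGTG, which reads the same on both strands, stood in 2 of 7 windows of the 6 matched members and in 7.15% of all 32851 windows. TATAAA, searched on both strands, stood in none of the 7 windows and in 13.6% of all, and CCAAT in 1 of 7, that of Tasp1, and in 37.4% of all. The motifs were picked after the windows had been read and the member differences were known, so the match of E-box and difference in Gtf2a1 and Tasp1 is a description with no test. The matches say nothing of factor binding. Usf2 had no entry.

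The stem cell label was checked against markers. Of 10 stem cell genes 8 were measured, and their mean log2 intensity was 6.62 to 6.95 in TFIIA nc/nc and 6.73 to 7.11 in wild type. Of the sort markers, Slamf1, which encodes CD150, read 6.23 to 6.92 in TFIIA nc/nc and 6.12 to 6.57 in wild type, and Kit, which encodes c-Kit, 7.50 to 8.18 and 7.61 to 9.06. Kit and the stem cell genes Procr and Hlf leaned lower, in overlapping groups. Procr read 5.99 to 6.58 in TFIIA nc/nc and 6.39 to 7.72 in wild type, and Hlf 7.30 to 7.95 and 7.75 to 8.43. For Meis1, Gata2 and Cd34 the TFIIA nc/nc values lay within the wild-type range. Meis1 read 7.96 to 8.18 in TFIIA nc/nc and 7.76 to 8.32 in wild type. Gata2 read 7.45 to 7.66 and 7.37 to 7.68, and Cd34 7.82 to 7.98 and 7.57 to 8.43. Mecom was dim, at 2.23 to 2.35 in TFIIA nc/nc and 2.08 to 3.15 in wild type. The 4 measured lineage antigens of 6 averaged 2.79 to 3.11 in TFIIA nc/nc and 2.82 to 3.13 in wild type, below the array medians of 3.69 to 3.82. Endothelial transcripts set 3 arrays apart. The mean of 13 measured endothelial markers of 14 lay at 6.49 to 6.97 for TFIIA nc/nc replicates 1 and 2, with wild-type replicate 1 at 6.61, while TFIIA nc/nc replicate 3 stood at 3.25 and the other 3 wild-type arrays at 3.03 to 3.27. Liver parenchyma genes (7 of 8 measured) averaged 3.40 to 5.21 in TFIIA nc/nc and 3.06 to 4.23 in wild type, macrophage genes (9 of 9) 4.21 to 5.47 and 2.78 to 4.80, and erythroid genes (5 of 7) 2.74 to 3.02 and 2.81 to 3.32. In bulk samples, fewer cells of a type and less RNA per cell cannot be told apart. The part of these cells in the values of the members was not tested beyond the settings given with each gene.

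None of the 13 member probe sets passed the threshold of an adjusted p of 0.05 (limma, Benjamini-Hochberg over 22626 probe sets, adjusted p = 0.984 to 0.993). The background was 0.00442%, a single probe set, of Galc, with a lower signal in TFIIA nc/nc. An unadjusted p under 0.05 was reached by 3 member probe sets, against 4.00% of all probe sets. Of these, 2 were higher and both belonged to Gtf2a1 (1.91% of all were higher), and 1, of Usf2, was lower (2.09% of all). By exact permutation none of the 3 was under 0.05 (p = 0.171 and 0.114 for Gtf2a1, p = 0.0857 for Usf2). For 0 of 13 did the 3 TFIIA nc/nc values lie wholly outside the 4 wild-type values, which happened for 5.65% of all probe sets. The mean was higher in TFIIA nc/nc for 5 member probe sets and lower for 8. Their median difference was −0.04 and that of all probe sets −0.01, on the log2 scale and as TFIIA nc/nc minus wild type. The median size of the difference was 0.22 for the members and 0.14 for all probe sets. Neither median is scaled by the spread within genotypes, which was uneven among the members. The residual SD exceeded that of 98.7% of probe sets at most, for Gtf2a1 1454631_at, and of 19.6% at least, for Tbp 1426469_a_at.

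**Figure D1:**
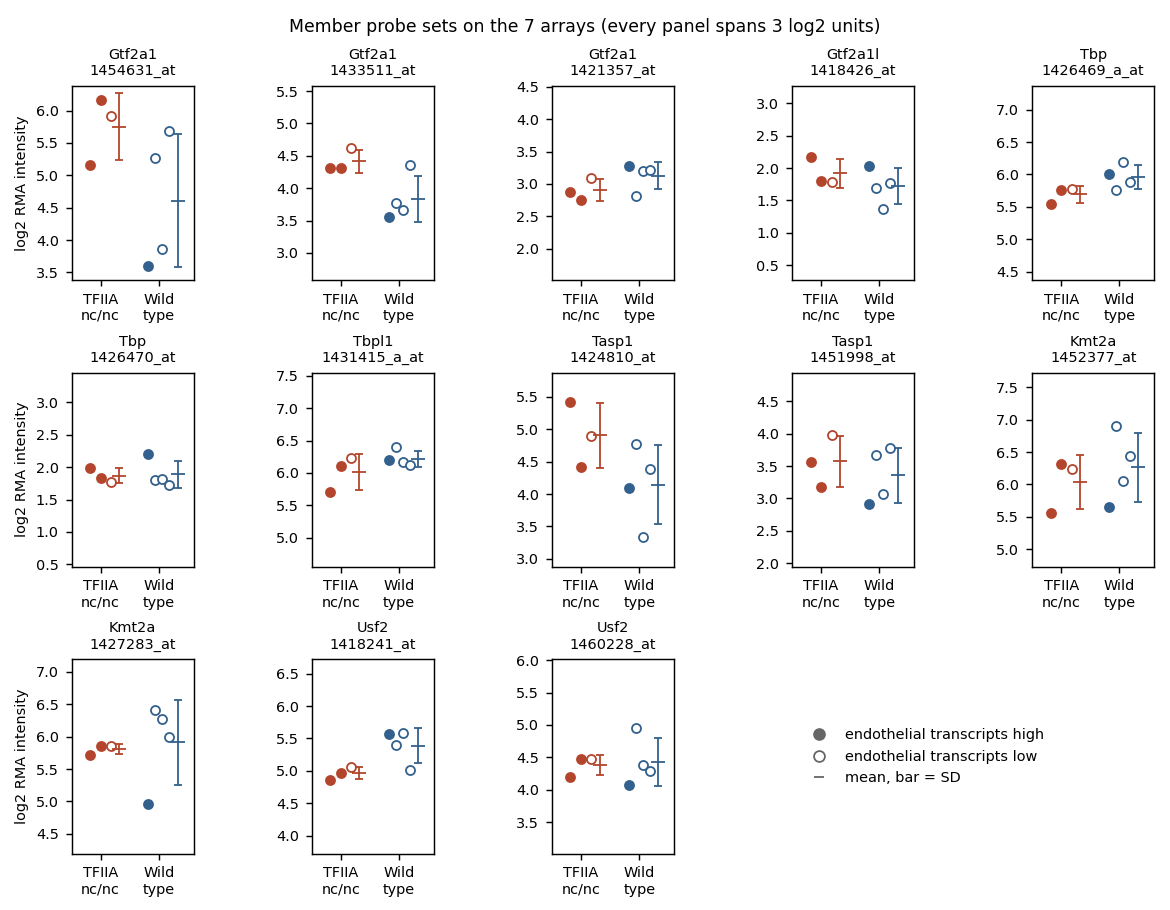
Log2 RMA intensity of the 13 member probe sets on each of the 7 arrays, TFIIA nc/nc left and wild type right, with group mean and SD (n = 3 and n = 4). Filled points are the 3 arrays with high endothelial transcripts; every panel spans the same 3 log2 units around its own centre, and in all 13 panels the genotypes overlap, the widest spread being that of the wild-type arrays for Gtf2a1 1454631_at (3.61 to 5.69).

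Gtf2a1 (Entrez gene 83602, chr12:91555262-91590487 on GRCm38.p6) had 3 probe sets. The brightest, 1454631_at, read 5.17, 6.16 and 5.92 in TFIIA nc/nc, against 3.61, 5.27, 3.86 and 5.69 in wild type. Wild-type replicates 1 and 3 lay far below all TFIIA nc/nc samples, while replicates 2 and 4 lay among them. The group means were 5.75 ± 0.52 in TFIIA nc/nc (SD, n = 3) against 4.61 ± 1.03 in wild type (SD, n = 4), and the difference of 1.14 had a 95% confidence interval of 0.02 to 2.27 (limma, adjusted p = 0.984; exact permutation p = 0.171). Its residual SD of 0.86 exceeded that of 98.7% of probe sets, so the spread within genotypes was among the widest on the array. With the 4 arrays of low endothelial transcripts, 1 TFIIA nc/nc and 3 wild-type, the difference was 0.98. It was 1.50 with the endothelial mean as a covariate, so the 2 settings moved it in opposite directions.

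The second Gtf2a1 probe set, 1433511_at, derives from the same reference sequence and showed a smaller gap. It read 4.31, 4.31 and 4.62 in TFIIA nc/nc and 3.55, 3.77, 3.67 and 4.36 in wild type. Here wild-type replicate 4 alone reached the TFIIA nc/nc range, and the other 3 lay below it. The difference was 0.58 (95% confidence interval 0.10 to 1.05; limma, adjusted p = 0.984; exact permutation p = 0.114), and 0.69 with the 4 arrays of low endothelial transcripts. It was 0.36 when 10 was added to each intensity before the log, a step that shrinks differences between dim values.

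The third Gtf2a1 probe set, 1421357_at, derives from the RefSeq transcript and gave a dim signal, under the array median on all 7 arrays. It read 2.87, 2.76 and 3.09 in TFIIA nc/nc and 3.28, 2.82, 3.21 and 3.21 in wild type, a difference of −0.22 (95% confidence interval −0.60 to 0.15; limma, adjusted p = 0.984). The sign was thus opposite to that of the other probe sets, within overlapping groups, and it turned to 0.01 with the 4 arrays of low endothelial transcripts. Differences between dim RMA values tend to be understated, so this probe set bounds the transcript less well than its interval says.

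Gtf2a1l (chr17:88665493-88715157), also called ALF, encodes the large TFIIA subunit of male germ cells, itself a Taspase1 substrate. Its probe set read 2.17, 1.80 and 1.78 in TFIIA nc/nc and 2.04, 1.70, 1.37 and 1.77 in wild type. All 7 values lay under the array medians, and the groups overlapped. The difference was 0.20 (95% confidence interval −0.23 to 0.63; limma, adjusted p = 0.984), 0.17 with the 4 arrays of low endothelial transcripts and 0.07 with the endothelial mean as a covariate. Leaving out TFIIA nc/nc replicate 1 gave 0.07, wild-type replicate 3 gave 0.08 and wild-type replicate 1 gave 0.30.

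Tbp (chr17:15499888-15517427) encodes the protein that TFIIA holds on DNA. Its brighter probe set, 1426469_a_at, read 5.55, 5.75 and 5.77 in TFIIA nc/nc and 6.00, 5.76, 6.19 and 5.88 in wild type. The groups overlapped only through the highest TFIIA nc/nc sample, at 5.77, and the lowest wild-type sample, at 5.76. Means were 5.69 ± 0.13 in TFIIA nc/nc (SD, n = 3) against 5.96 ± 0.19 in wild type (SD, n = 4). The difference was −0.27 (95% confidence interval −0.62 to 0.08; limma, adjusted p = 0.984; exact permutation p = 0.0857), and −0.17 with the 4 arrays of low endothelial transcripts. After adjustment for the endothelial mean the difference was −0.26. The other Tbp probe set, 1426470_at, read 1.77 to 1.99 in TFIIA nc/nc and 1.72 to 2.20 in wild type. It lay under the median of every array, with a difference of −0.02.

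Tbpl1 (chr10:22703877-22732666) encodes a TBP paralog, also called TLP or TRF2, that binds TFIIA but not the TATA box and is needed for sperm formation in mice. Its probe set read 5.70, 6.11 and 6.23 in TFIIA nc/nc and 6.20, 6.40, 6.17 and 6.12 in wild type. TFIIA nc/nc replicate 1 lay apart below, and the other TFIIA nc/nc samples lay at or within the wild-type range. The difference was −0.20 (95% confidence interval −0.58 to 0.18; limma, adjusted p = 0.984). It was −0.05 without TFIIA nc/nc replicate 1, and 0.00 with the 4 arrays of low endothelial transcripts.

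Tasp1 (chr2:139833479-140066847) encodes Taspase1. Its brighter probe set, 1424810_at, read 5.42, 4.41 and 4.90 in TFIIA nc/nc and 4.09, 4.78, 3.33 and 4.39 in wild type. The highest reading was that of TFIIA nc/nc replicate 1 and the lowest that of wild-type replicate 3, with the remaining 5 arrays overlapping. Means were 4.91 ± 0.50 in TFIIA nc/nc (SD, n = 3) against 4.15 ± 0.61 in wild type (SD, n = 4). The difference was 0.76 (95% confidence interval −0.01 to 1.54; limma, adjusted p = 0.984; exact permutation p = 0.114). With single arrays left out it ran from 0.49, without wild-type replicate 3, and 0.51, without TFIIA nc/nc replicate 1, to 0.97, without wild-type replicate 2, and 1.01, without TFIIA nc/nc replicate 2. It was 0.42 when arrays were weighted by their agreement with the rest, 1.04 with the sex measure as a covariate and 1.05 in samples pooled from several embryos. The sex measure, the mean log2 of Y-linked genes minus that of Xist, was −9.85, −6.93 and −4.51 in TFIIA nc/nc. In wild type it was 0.52, 1.21, −7.11 and −4.83. Wild-type replicates 1 and 2, the highest, were also the only single-embryo samples, so these 2 settings overlap.

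Tasp1 signals were also read beside RNA quality. The actin signal at the 3′ end minus that at the 5′ end was 2.95, 2.15 and 2.99 in TFIIA nc/nc and 2.92, 2.62, 1.94 and 2.12 in wild type, lowest in the array with the lowest Tasp1. With this measure as a covariate the Tasp1 difference was 0.54, and with the 4 arrays of low endothelial transcripts it was 0.73. The dimmer Tasp1 probe set, 1451998_at, read 3.57, 3.17 and 3.97 in TFIIA nc/nc and 2.91, 3.67, 3.07 and 3.77 in wild type. It lay above the array median on 2 of 7 arrays and differed by 0.21 (95% confidence interval −0.39 to 0.81). Single arrays moved this value from 0.01, without TFIIA nc/nc replicate 3, and 0.07, without wild-type replicate 1, up to 0.41, without TFIIA nc/nc replicate 2. It was 0.06 with array weights and 0.47 with the 4 arrays of low endothelial transcripts.

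Kmt2a (chr9:44803355-44881352) encodes MLL1, whose chains stay bound to each other after Taspase1 cuts it. Its brighter probe set, 1452377_at, read 5.55, 6.32 and 6.24 in TFIIA nc/nc and 5.65, 6.90, 6.05 and 6.45 in wild type. The other, 1427283_at, read 5.72, 5.86 and 5.86 in TFIIA nc/nc and 4.97, 6.42, 6.28 and 5.99 in wild type. In both, the lowest wild-type array was replicate 1, and the wild-type values lay on both sides of the TFIIA nc/nc values for 1427283_at. The differences were −0.23 (95% confidence interval −0.91 to 0.46) and −0.10 (95% confidence interval −0.80 to 0.60; limma, adjusted p = 0.985 at most). Neither sign was stable, since 1452377_at turned to 0.02 without TFIIA nc/nc replicate 1, and 1427283_at to 0.07 without wild-type replicate 2 and 0.02 without wild-type replicate 3.

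The Kmt2a levels were set beside the endothelial signal because both low arrays of 1452377_at had high endothelial transcripts. TFIIA nc/nc replicate 2, with the highest endothelial mean (6.97), did not follow this and read 6.32. That was above TFIIA nc/nc replicate 3 (6.24) and wild-type replicate 3 (6.05), and below wild-type replicates 2 (6.90) and 4 (6.45), all of low endothelial transcripts. Over the 3 arrays of high endothelial transcripts the means were 5.84 for 1452377_at and 5.52 for 1427283_at, and over the other 4 they were 6.41 and 6.14. The share of that signal in the Kmt2a values was not tested. After adjustment for the endothelial mean the genotype difference was 0.01 for 1452377_at and 0.20 for 1427283_at, and with the 4 arrays of low endothelial transcripts it was −0.23 and −0.37.

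Usf2 (chr7:30945248-30956951) encodes a helix-loop-helix factor that binds E-boxes and is a reported Taspase1 substrate. Its brighter probe set, 1418241_at, read 4.86, 4.97 and 5.06 in TFIIA nc/nc and 5.57, 5.39, 5.58 and 5.01 in wild type. Of the wild-type samples 3 lay above every TFIIA nc/nc sample, and wild-type replicate 4 lay among them. Means were 4.97 ± 0.10 in TFIIA nc/nc (SD, n = 3) against 5.39 ± 0.27 in wild type (SD, n = 4). The difference was −0.42 (95% confidence interval −0.82 to −0.03; limma, adjusted p = 0.984; exact permutation p = 0.0857), and −0.27 with the 4 arrays of low endothelial transcripts. After adjustment for the endothelial mean the difference was −0.46. The other Usf2 probe set, 1460228_at, read 4.20 to 4.48 in TFIIA nc/nc and 4.08 to 4.95 in wild type. It differed by −0.04 (95% confidence interval −0.52 to 0.44). This turned to 0.05 when TFIIA nc/nc replicate 1 was left out and to 0.13 when wild-type replicate 2 was.

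**Figure D2:**
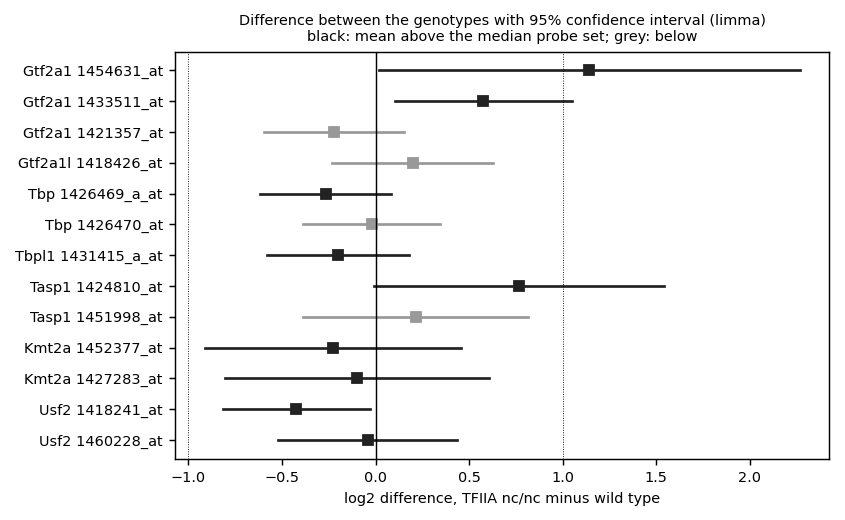
Log2 difference, TFIIA nc/nc minus wild type, of each member probe set (squares) with its 95% confidence interval from limma, not adjusted for the number of probe sets; dotted lines mark a difference of 1 in either direction. The intervals of Gtf2a1 1454631_at (0.02 to 2.27) and Tasp1 1424810_at (−0.01 to 1.54) are the widest, and with limma's moderated variances no interval reaches −1.

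The intervals say what sizes of change the 7 arrays leave possible. They use limma's moderated variances, which draw a wide spread toward that of the other probe sets. So taken, all 13 excluded a signal that was 2-fold lower in TFIIA nc/nc. For probe sets of wide spread, unmoderated intervals would be wider and are not given. Among these are Kmt2a 1452377_at and 1427283_at, with residual SDs of 0.49 and 0.51 against a median of 0.25 over all probe sets. A signal 2-fold higher was excluded for 10, the exceptions being the Gtf2a1 probe sets 1454631_at and 1433511_at and the Tasp1 probe set 1424810_at. The widths ran from 0.70 to 2.25 log2 units. These bounds hold for probe set signals, are not adjusted over probe sets, and are too narrow for the transcript where the signal is dim, as in the 4 member probe sets below the median level.

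Probe sets of one gene gave unlike differences for Gtf2a1, Tasp1 and Usf2, and the gap between them was compared within each array. For Gtf2a1, 1454631_at minus 1433511_at was 0.85, 1.86 and 1.30 in TFIIA nc/nc and 0.06, 1.50, 0.19 and 1.33 in wild type, and the gap was 0.56 wider in TFIIA nc/nc (exact permutation p = 0.314). For 1454631_at minus 1421357_at the gap was 1.36 wider (exact permutation p = 0.2). In wild-type replicates 1 and 3 the gaps of Gtf2a1 were small, and in the others they were of the TFIIA nc/nc size. The gap changed by 0.55 for Tasp1 (exact permutation p = 0.229), −0.38 for Usf2 (exact permutation p = 0.314), −0.25 for Tbp (exact permutation p = 0.286) and −0.13 for Kmt2a (exact permutation p = 0.571). Single arrays moved these values, other than the second of Gtf2a1, by over 1.5 times. The first Gtf2a1 gap was 0.31 without TFIIA nc/nc replicate 2, 0.33 without wild-type replicate 1 and 0.37 without wild-type replicate 3. The Tasp1 gap was 0.29 without TFIIA nc/nc replicate 1, the Tbp gap −0.11 without the same array and −0.15 without wild-type replicate 3, and the Usf2 gap −0.20 without wild-type replicate 1. The Kmt2a gap, the smallest, turned to 0.07 without TFIIA nc/nc replicate 1. Adjusted exact permutation p-values were 0.377 to 0.571 (Benjamini-Hochberg over 6). With 0.0286 the smallest unadjusted p that 35 assignments allow, 1 gap alone could not have passed this adjustment, so the test says little. The gaps against Gtf2a1 1421357_at and Tbp 1426470_at rest on dim probe sets.

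**Figure D3:**
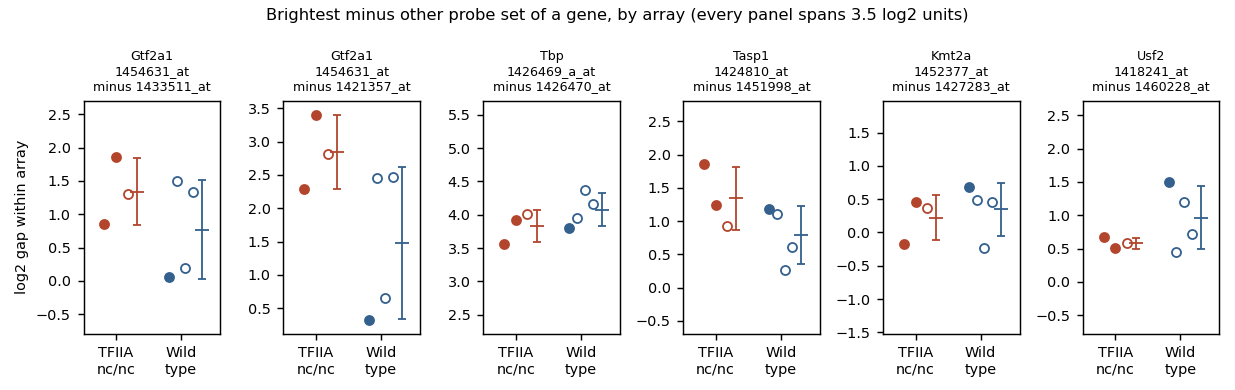
Log2 gap between the brightest probe set of a gene and each of its other probe sets on the same array, TFIIA nc/nc left and wild type right, with mean and SD (n = 3 and n = 4). The Gtf2a1 gaps of wild-type replicates 1 and 3 (0.06 and 0.19 against 1433511_at) lie below those of the other 5 arrays, and in all 6 panels the genotypes overlap.

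The members were then compared with each other over the 7 arrays, each by its brightest probe set, in 21 pairs. Against its other probe sets, that of Gtf2a1 had Pearson's r of 0.86 and −0.60. The value was 0.65 for Tasp1, 0.72 for Kmt2a, 0.05 for Tbp and 0.075 for Usf2. The pairs thus describe the brightest probe sets, and relations by the other probe sets were not tested. By these brightest probe sets Tasp1 and Tbp ran opposite. The array with the lowest Tasp1, wild-type replicate 3, had the highest Tbp, and the array with the highest Tasp1, TFIIA nc/nc replicate 1, had the lowest Tbp. Pearson's r was −0.97 (exact permutation p = 0.00218, adjusted over the 21 pairs p = 0.0458) and Spearman's rho −0.86 (exact permutation p = 0.0238, adjusted p = 0.25), n = 7. Without the 2 arrays farthest from the median Tbp, wild-type replicates 3 and 1, r was −0.88, and taken over deviations from the genotype means it was −0.95. The pair was the strongest of 21, and only the Pearson value passed the adjustment. This test was not planned. It was added after a first look at the correlations had shown this pair, so its p-values are no independent evidence. The arrays of high and of low endothelial transcripts number 3 and 4, too few for a correlation by the minimum of 6 arrays used here, so their order is given. The 3 high arrays ran in strictly opposite order. Of the 4 low arrays, wild-type replicates 3 and 4 had the lower Tasp1 and the higher Tbp, and TFIIA nc/nc replicate 3 and wild-type replicate 2 had the higher Tasp1 and the lower Tbp, with TFIIA nc/nc replicate 3 the higher of these in both genes.

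None of the other 20 pairs passed the adjustment. Gtf2a1 and Usf2 had r = −0.83 (exact permutation p = 0.0226, adjusted p = 0.175) and rho = −0.57 (exact permutation p = 0.2). The relation rested on wild-type replicates 1 and 3, with r = −0.23 without them. Tbp and Usf2 had r = 0.80 (exact permutation p = 0.025, adjusted p = 0.175) and rho = 0.86 (exact permutation p = 0.0238, adjusted p = 0.25), with r = 0.37 without the 2 arrays farthest from the median Tbp. Gtf2a1 and Tasp1, both higher on average in TFIIA nc/nc, had r = 0.59 (exact permutation p = 0.17) and rho = 0.43 (exact permutation p = 0.354), and r = −0.67 without wild-type replicates 1 and 3. Gtf2a1 and Kmt2a, precursor genes of 2 Taspase1 substrates, had r = 0.50 (exact permutation p = 0.258) and rho = 0.57 (exact permutation p = 0.2), and r = 0.16 without the same 2 arrays. Over deviations from the genotype means r was −0.71 for Gtf2a1 and Usf2, 0.58 for Tbp and Usf2, 0.34 for Gtf2a1 and Tasp1 and 0.86 for Gtf2a1 and Kmt2a, given without a test.

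**Figure D4:**
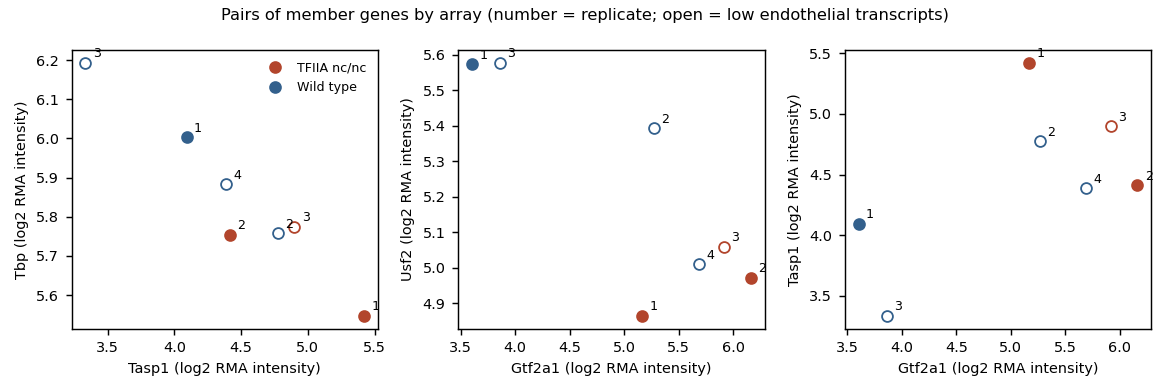
Log2 RMA intensities of 3 pairs of member genes, each by its brightest probe set, on the 7 arrays. Numbers are replicates, red is TFIIA nc/nc, blue is wild type, and open points have low endothelial transcripts. Tasp1 and Tbp run opposite over the 7 arrays (r = −0.97), in strict order in wild type but not in TFIIA nc/nc, where replicate 3 lies above replicate 2 in both, whereas the slope of Usf2 on Gtf2a1 rests on wild-type replicates 1 and 3.

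The genes most like a member in pattern were ranked by Pearson's r over the 7 arrays among 6949 other genes above the median level, for the 6 members that lay above that level themselves. Gtf2a1l lay below it and was not ranked. With so many candidates and 7 arrays high values arise readily, so these are descriptions without a test. For Gtf2a1 they were Zfp106, a zinc finger gene, at 0.980, the nucleoporin Nup160 at 0.979 and the mitochondrial RNA gene Fastkd5 at 0.977. For Tasp1 they were Rce1, an endoprotease of prenylated proteins, at 0.992, the mismatch repair gene Pms2 at 0.985 and Tsr2 at 0.985. For Kmt2a they were the mitochondrial ribosomal gene Mrpl9 at 0.991, the sorting nexin Snx6 at 0.979 and Lrrc1 at 0.955.

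For Tbp the most alike were C1qtnf6 at 0.985, the nicotinamide nucleotide repair gene Naxd at 0.977 and the sterol hydroxylase Cyp27a1 at 0.969. For Tbpl1 they were the cohesin loader Nipbl at 0.972, the ciliary transport gene Ift81 at 0.962 and Bex4 at 0.958. For Usf2 they were Limd1 at 0.965, Oxld1 at 0.957 and Tjap1 at 0.952. None of these 18 genes passed the threshold between the genotypes (limma, adjusted p = 0.984 to 0.985), and no member stood among the 3 of another.

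Partners and targets of the pathway were counted in 6 lists, each gene by its brightest probe set. No gene of any list passed the threshold, where the background over 12393 genes was 0.00807%. At an unadjusted p under 0.05 there was 1 of 59 measured genes, Mllt3, against 4.43% of all genes. The median difference over all genes was −0.01.

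TFIIA and TBP partners had 7 of 14 genes measured, 4 higher and 3 lower on average, with a median of 0.05. Gtf2a2, the gene of the small TFIIA subunit, was not analysed here. Gtf2b, which encodes TFIIB, read 8.19, 8.15 and 8.31 in TFIIA nc/nc and 8.14, 8.15, 8.13 and 8.11 in wild type. Its groups did not overlap by a narrow margin, and the difference was 0.08 (SE 0.13). Taf1a, a subunit of the TBP complex of RNA polymerase I, differed by 0.53 (SE 0.26) and Taf4, a TFIID subunit, by −0.22 (SE 0.28).

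The MLL1 complex and its relatives had 11 of 16 genes measured, 6 higher and 5 lower, with a median of 0.01. Mllt3, a partner of MLL1 in leukaemic fusions and a regulator of stem cell maintenance, read 5.78, 5.76 and 6.33 in TFIIA nc/nc and 6.13, 6.88, 6.80 and 7.07 in wild type. Only wild-type replicate 1, an array of high endothelial transcripts, fell into the TFIIA nc/nc range, and the difference was −0.77 (SE 0.25; limma, adjusted p = 0.984). Men1, the menin that tethers MLL1, differed by −0.33 (SE 0.27) and Psip1, its chromatin reader, by −0.19 (SE 0.22). The MLL1 relatives Kmt2c and Kmt2d differed by 0.02 and −0.05.

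MLL1 target genes of blood stem cells had 10 of 12 genes measured, 6 higher and 4 lower, with a median of 0.02. Hoxa9, a homeobox gene of stem cell self-renewal, read 8.74, 8.76 and 9.04 in TFIIA nc/nc and 8.82, 9.08, 9.16 and 9.43 in wild type, a difference of −0.28 (SE 0.18) between overlapping groups. Cdkn2c, the cell cycle inhibitor p18, differed by 0.42 (SE 0.32), Runx1, a founding factor of blood stem cells, by 0.28 (SE 0.35), and Meis1, a cofactor of Hox proteins, by 0.03 (SE 0.18). Cell cycle genes linked to Taspase1 had 8 of 9 measured, 6 higher and 2 lower, with a median of 0.25. Cdkn1b, the inhibitor p27, differed by −0.44 (SE 0.24), cyclin E1, Ccne1, by 0.28 (SE 0.15) and Cdkn1a, the inhibitor p21, by 0.26 (SE 0.17). Cdkn2a, the locus of the inhibitors p16 and p19, was dim at 2.00 in TFIIA nc/nc and 2.03 in wild type.

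E-box factors had 13 of 14 genes measured, 2 higher and 11 lower, with a median of −0.04. Srebf1, a regulator of lipid synthesis, differed by −0.25 (SE 0.15), Myc by 0.22 (SE 0.17), the clock gene Arntl by −0.20 (SE 0.23), and Usf1, the close relative and partner of Usf2, by 0.06 (SE 0.15). Spermatid targets of TBPL1 had 11 of 11 genes measured, 4 higher and 7 lower, with a median of −0.14, and 1 of the 11 lay above the median level. Akap4, a sperm tail scaffold, read 1.95 on average in TFIIA nc/nc and 2.20 in wild type, Odf1, of the sperm outer dense fibres, 2.16 and 2.33, and Spata19 1.95 and 2.10.

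**Figure D5:**
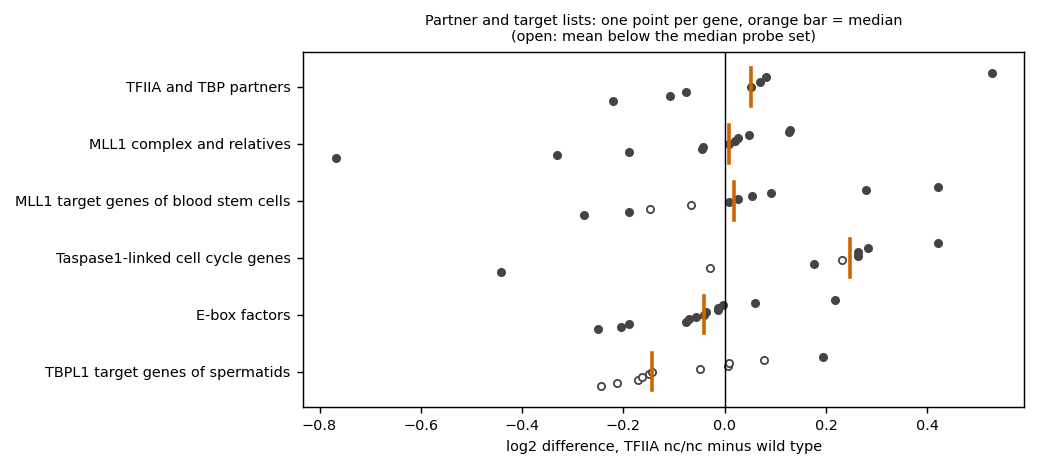
Log2 difference, TFIIA nc/nc minus wild type, of each measured gene of the 6 partner and target lists (points; open where the mean lies below the median probe set), with the list median as an orange bar. The points of every list lie on both sides of 0, the medians run from −0.14 to 0.25, and the lowest point is Mllt3 at −0.77.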

How the data were processed

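Each deposited value is an RMA intensity of a probe set on a linear scale, from 2.23 to 28415. Per the submitters' processing notes, RMA was run in Affymetrix Expression Console, whose version is not given in the sources read here. RMA corrects background, equalises the array distributions, summarises probes and returns a value whether or not a transcript is detected. Because the labels' protocols describe amplification from the 3′ end, signals weigh the end of the transcript. Log2 was taken with no pseudocount, and array correlations were 0.966 to 0.991. Detection calls, probe sequences and scan batches were not analysed here, and the count of arrays limits the precision.

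After 64 control probe sets had been removed from 22690, the remaining 22626 entered one fit on all 7 arrays with lmFit and eBayes (limma 3.58.1, R 4.3.3), 2-sided, adjusted by Benjamini-Hochberg, threshold 0.05, tested on simulated data. The platform annotation gave 1 gene symbol for 20380 probe sets, several for 691 and none for 1555, and symbols were updated by Entrez identifier from a RefSeq table of GRCm38.p6, which matched 12369 of 12393 genes. For lists and likeness a gene was represented by its probe set of highest mean. Single values were tested by exact 2-sided permutation of the 35 assignments, correlations over all orders of the 7 arrays. All member probe sets were named, and per list the 3 genes of smallest p; Kmt2c, Kmt2d, Meis1, Cdkn2a and Usf1 were added after their values were seen. The correlations between members were added after a first look at them, and the promoter motifs were chosen after the windows had been read and the differences were known. The members and lists were chosen with earlier results of these data known. Samples are biological replicates per the labels, which name no litter shared by the genotypes. Same-numbered samples deviated together by 0.364, −0.145 and 0.0482 (correlation over probe sets), so the numbers were not treated as pairs. Alternatives covered moderation, normalization, pseudocount, array weights, embryos pooled, sex, endothelial transcripts, RNA quality, threshold, dim probe sets, 1 probe set per gene and each array left out. Plots used matplotlib 3.10.9 in Python 3.11.15.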

Additional observations from a re-analysis of the deposited data

Results flagged for a closer look

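Wild-type replicate 2 stood apart from the other 3 wild-type samples for the dim Gtf2a1 probe set 1421357_at, at 2.82 against 3.21 to 3.28, with TFIIA nc/nc at 2.76 to 3.09. It was the only one of 13 groups of 4 so set apart, and chance does this in about 1 of 20 groups.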

How the results depend on the processing

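No member probe set passed the threshold under any of 13 other settings or with any of the 7 arrays left out (lowest adjusted p = 0.372, Tasp1 1424810_at in pooled samples only), nor with 1 probe set per gene, among probe sets above the median or at a threshold of 0.1. The count over all probe sets was 1, but 14 with pooled samples only, 0 without moderation, 0 with the 4 arrays of low endothelial transcripts, and 1 to 2 with an array left out; no member was among them. For 7 of the 13 the sign held throughout. The others turned, and the cause was not tested. Tbp 1426470_at was 0.007 with quantile normalization, 0.02 with cyclic loess, 0.011 with the number of embryos, 0.095 in pooled samples only and 0.031 with the sex measure, and −0.084 to 0.083 with an array left out. Kmt2a 1452377_at was 0.007 with the endothelial mean, and −0.429 to 0.015 with an array left out. Kmt2a 1427283_at was 0.198 with the endothelial mean, 0.069 with the actin measure, and −0.415 to 0.069 with an array left out. Usf2 1460228_at was 0.046 in pooled samples only, 0.084 with the endothelial mean and 0.113 with the sex measure, and −0.158 to 0.132 with an array left out. With the 4 arrays of low endothelial transcripts Gtf2a1 1421357_at was 0.013 and Tbpl1 0.004. The gap between the Kmt2a probe sets changed by −0.319 to 0.068 with an array left out. With the replicate number as a block, Gtf2a1 1454631_at differed by 1.50 (limma, adjusted p = 0.792), and no call changed. Dim signal limits Gtf2a1l, Tbp 1426470_at, Tasp1 1451998_at and Gtf2a1 1421357_at.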
